A study of Ovis aries with 16 samples.

Results

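NFAT5, RCAN1, SLC4A4 and ADRB1 are 4 of the 959 gene names that could be read from the ovine array, and each was measured by 1 probe in 1 spot per array. Their probes were found by gene name or description in the annotation of the scanner files, across hippocampus arrays of 16 late-gestation fetal sheep. The 4 groups were normoxia control (NC, n = 3), normoxia plus ketamine (NK, n = 4), hypoxia control (HC, n = 5) and hypoxia plus ketamine (HK, n = 4). Fetuses of NK and HK received 3 mg/kg ketamine through the fetal femoral vein shortly before the stimulus, which was normoxia in NC and NK and hypoxia in HC and HK. The stimulus lasted 30 min, hypoxia was made by nitrogen flowing into the trachea of the ewe, and the brain was taken at 24 h. All fetuses carried chronic catheters, nearly all were twins, and pregnancies rather than single fetuses were drawn for normoxia or hypoxia. Because the labels do not tie fetuses to pregnancies, a shared ewe could not enter the fit.

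The genes were selected on earlier results of these same arrays, and which comparison picked them is not recorded. Every comparison of the groups was therefore treated as used: levels, differences and their errors are given as a description, with no p-value for the 4 genes. Where 1 of these genes is said to pass or miss a threshold, in any fit, that too is description and lends no support. A level is the log2 of the background-subtracted spot intensity minus the 75th percentile of its array, so 0 stands for the 75th percentile and each step of 1 is a doubling of intensity. Levels of different probes are not compared with each other. Arrays are named by group and replicate, so that HC3 is the third array of the hypoxia control group. In whole tissue, fewer cells of a type and less RNA per cell cannot be told apart.

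The proteins work at different points of how a cell answers calcium, salt, acid and noradrenaline. NFAT5 is the transcription factor that switches on genes for osmolyte uptake and synthesis when the surroundings of the cell become hypertonic. It shares its DNA-binding domain with the NFATc factors, which calcineurin, a phosphatase activated by calcium, sends to the nucleus. RCAN1 binds calcineurin and restrains it, and one of its transcripts is itself induced through calcineurin and NFATc. SLC4A4 carries sodium and bicarbonate across the plasma membrane, and in the brain it is best known from astrocytes, where it shifts bicarbonate when neurons are active. ADRB1 is the beta-1 adrenergic receptor, which answers noradrenaline and adrenaline by raising cAMP through the stimulatory G protein. Ketamine blocks the channel of the NMDA receptor, one route by which calcium enters hippocampal neurons.

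The letters that stood for 3 of the genes on the array are shown because each level below rests on a single 60-base probe. They are given 5′ to 3′ in lower case, as in the annotation of the scanner files, and no base is singled out.

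NFAT5 probe: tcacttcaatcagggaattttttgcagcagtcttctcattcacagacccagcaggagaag

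SLC4A4 probe: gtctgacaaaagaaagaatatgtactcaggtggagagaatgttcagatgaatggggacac

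ADRB1 probe: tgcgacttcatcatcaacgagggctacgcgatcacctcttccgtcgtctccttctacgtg

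The NFAT5 probe starts at base 216 of a partial coding sequence, the SLC4A4 probe at base 563 of a partial mRNA and the ADRB1 probe at base 378 of its mRNA, as counted in the array annotation. G and C made up 45% of the NFAT5 probe, 41.7% of the SLC4A4 probe and 55% of the ADRB1 probe, against a median of 43.3% over all 15008 probes. The probe for RCAN1 carried an older locus name on the array, with a description as a DSCR1-like protein, and the RefSeq gene table pairs its accession with RCAN1, formerly DSCR1. It lies at base 2133 of that transcript and its letters are not shown. No other probe on the array carried the sequence of any of the 4. The scanner files list the probes as unmapped, so genome positions are not given.

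The 4 spots differed widely in how far they stood above the scanner's floor. RCAN1 was bright, with intensities from 6869 to 16537, and the scanner software put its error at 10% of the signal on every array. SLC4A4 gave 15.97 to 35.28 and ADRB1 30.5 to 57.3, with errors of 11.7% to 17.1% and 10.8% to 13.0%. NFAT5 gave 11.6 to 64.3, with errors of 10.7% to 27.0%. The spots of all 4 genes exceeded the 95th percentile of the negative control spots, 2.26 to 4.98, on each of the 16 arrays. NFAT5 nevertheless was marked as well above background on 13 arrays only, missing HC4, HC5 and HK2, so its values there are the least certain. The other 3 genes carried that mark on all 16 arrays, and no spot of the 4 genes was saturated or marked as an outlier.

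**Figure D1:**
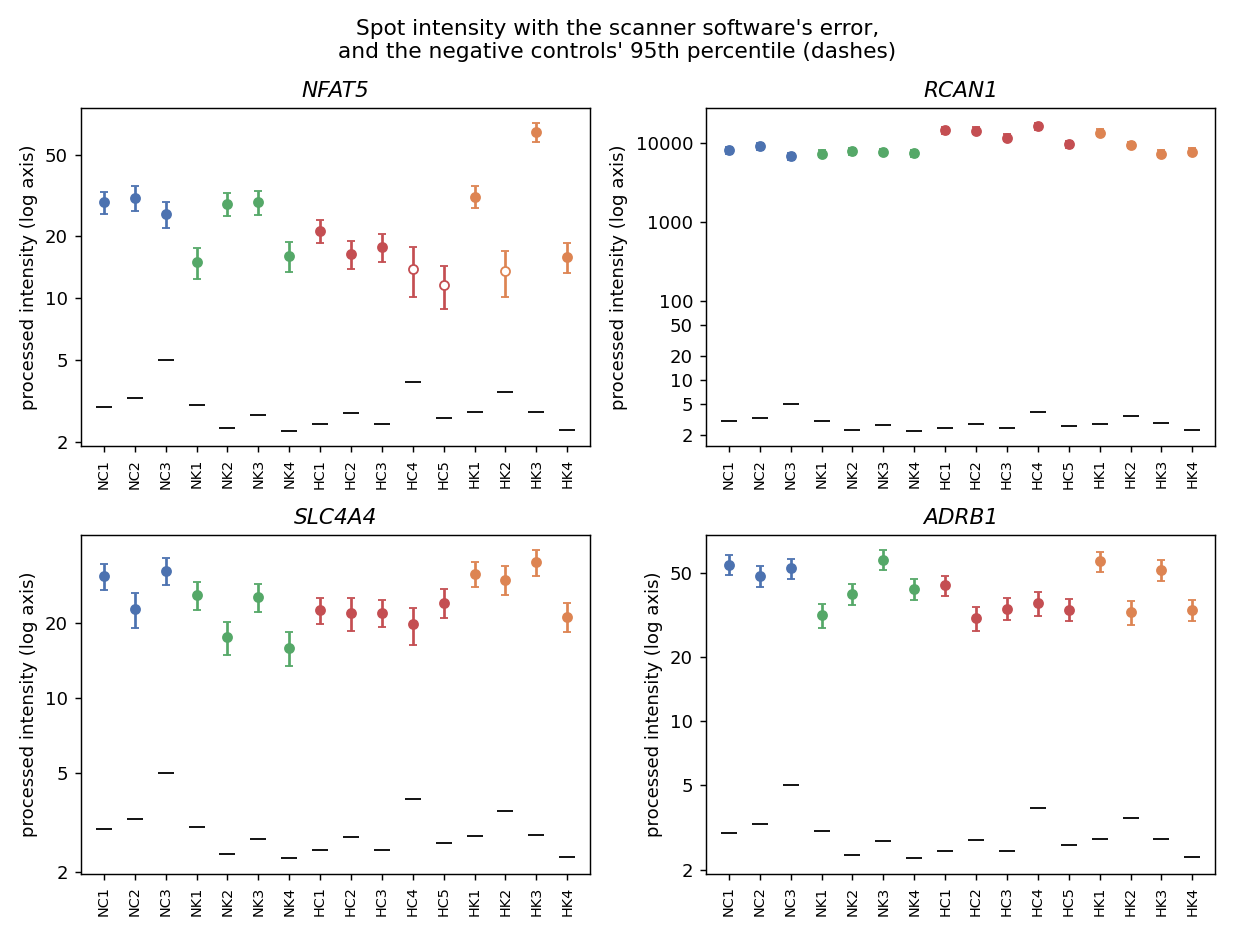
Processed spot intensity of each gene on each of the 16 arrays (log axis), with bars for the scanner software's error of that spot and dashes for the 95th percentile of the negative control spots of the array (2.26 to 4.98). Open symbols mark the 3 NFAT5 spots that were not well above background. RCAN1 lies at 6869 to 16537, the other 3 genes at 11.6 to 64.3.

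In NC, the RCAN1 level was 2.89, 3.14 and 2.90 on the 3 arrays. In NK it was 2.91, 2.89, 2.95 and 3.02. In HC it was 3.61, 3.58, 3.47, 3.92 and 3.32. Every HC array stood above every array of NC and NK, while the normoxic groups shared one range. In HK the level was 3.55, 3.30, 2.87 and 3.15, which spread from the normoxic range (HK3) into that of HC (HK1). The order of the means was HC at 3.58 ± 0.22 (SD, n = 5), HK at 3.22 ± 0.28 (SD, n = 4), NC at 2.98 ± 0.14 (SD, n = 3) and NK at 2.94 ± 0.06 (SD, n = 4), and each neighbouring pair in this order overlapped. RCAN1 was thus the 1 gene of the 4 with its highest mean in HC.

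For NFAT5, the NC arrays lay close together at -5.23, -5.08 and -5.16. The NK arrays read -6.04, -5.22, -5.11 and -5.84, a pair near the NC level and a pair well below it. In HC the 5 arrays read -5.82, -6.21, -5.92, -6.30 and -6.40, all below the lowest NC array. The HK arrays were the most scattered, at -5.23, -6.17, -3.98 and -5.80, and HK3 was the highest NFAT5 value of all 16 arrays. The means ran from NC at -5.16 ± 0.07 (SD, n = 3) through HK at -5.30 ± 0.95 (SD, n = 4) and NK at -5.55 ± 0.45 (SD, n = 4) to HC at -6.13 ± 0.25 (SD, n = 5). Only NC and HC were apart. The well-above-background mark was present on 3 of 3 NC, 4 of 4 NK, 3 of 5 HC and 3 of 4 HK arrays.

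The SLC4A4 probe read -5.15, -5.51 and -4.81 in NC and -5.24, -5.94, -5.31 and -5.85 in NK. Its HC values were -5.73, -5.79, -5.59, -5.79 and -5.34. Its HK values were -5.21, -5.01, -4.85 and -5.38. All groups overlapped for this gene: HC5 reached above NC2, and HK4 reached below HC5. HK had the highest mean, -5.11 ± 0.23 (SD, n = 4), next to NC at -5.16 ± 0.35 (SD, n = 3), and NK at -5.58 ± 0.36 (SD, n = 4) stood next to HC at -5.65 ± 0.19 (SD, n = 5).

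ADRB1 stood at -4.34, -4.44 and -4.13 in NC and at -4.97, -4.77, -4.14 and -4.45 in NK. In HC it was -4.78, -5.32, -4.98, -4.93 and -4.88, every array lower than the lowest of NC. In HK it was -4.37, -4.90, -4.31 and -4.73, which bridged both control groups. NC had the highest mean, -4.30 ± 0.15 (SD, n = 3), and HC the lowest, -4.98 ± 0.20 (SD, n = 5). HK at -4.58 ± 0.28 (SD, n = 4) and NK at -4.58 ± 0.36 (SD, n = 4) lay between them and could not be ordered.

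**Figure D2:**
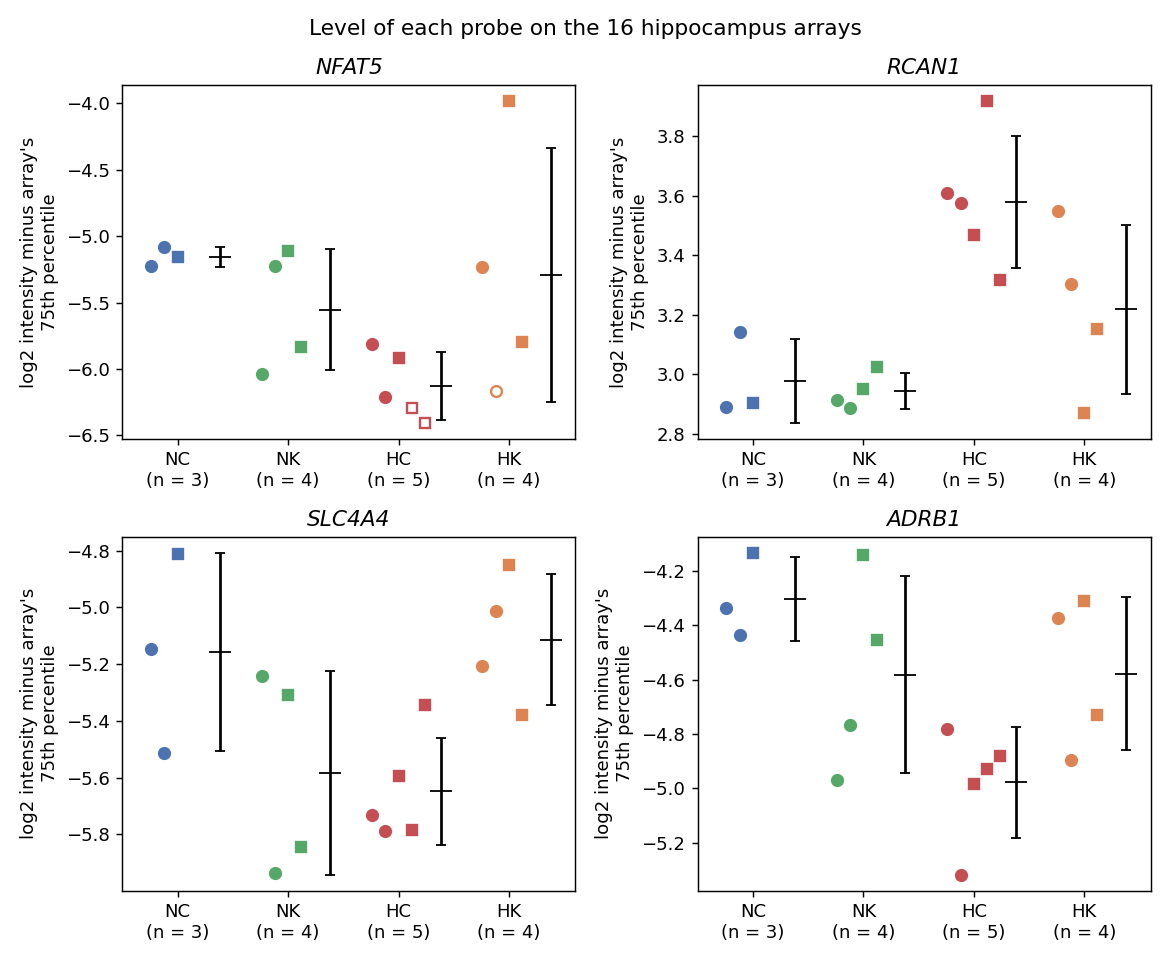
Level of each gene on each array (log2 intensity minus the array's 75th percentile), by group, with circles for slide 1, squares for slide 2, open symbols for spots not well above background, and black bars for the group mean ± SD. The 5 HC arrays lie above the NC arrays for RCAN1 and below them for NFAT5 and ADRB1, while SLC4A4 groups overlap.

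To ask how hypoxia differed from normoxia 24 h later, HC was set against NC in a limma fit of all 16 arrays. The RCAN1 level was higher in HC by 0.60 (SE 0.15), a 1.52-fold difference. NFAT5 was lower, with a log2 difference of -0.97 (SE 0.37), or 1.96-fold. ADRB1 differed by -0.68 (SE 0.19), or 1.60-fold lower, and SLC4A4 by -0.49 (SE 0.20), or 1.41-fold lower. Of all probes tested, 10.2% had a larger absolute difference than RCAN1 in this comparison, 3.53% a larger one than NFAT5, 8.26% than ADRB1 and 14.0% than SLC4A4. All 4 genes passed the criterion used here, an unadjusted p under 0.05, as did 10.6% of the 12543 probes tested. The study states p under 0.05 without saying whether it was adjusted, and it reported fewer genes than the probes passing here. HC and NC did not overlap for 3 of the 4 genes and for 7.65% of probes. Since these values may have chosen the genes, nothing is read from those counts. SLC4A4 was no longer past the criterion when NC1, NC3, HC2 or HC4 was left out, with values from -0.49 to -0.32, nor was NFAT5 without NC2 (-0.93). RCAN1 and ADRB1 were past it whichever of the 8 arrays was left out, which is no test of genes chosen on these arrays. With the deposited log2 table NFAT5 and SLC4A4 did not pass, and with normexp on the local background of each spot none of the 4 did. None of the 4 passed a Benjamini-Hochberg adjusted threshold of 0.05 over all probes, and 2 probes of the whole array did.

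The question of what ketamine did in hypoxic fetuses is HK against HC, which shares the HC arrays with the comparison above. Values of the same genes are set side by side here with nothing drawn from their opposite signs. RCAN1 differed by -0.36 (SE 0.14), a 0.78-fold level in HK. NFAT5 differed by 0.83 (SE 0.34), SLC4A4 by 0.54 (SE 0.18) and ADRB1 by 0.40 (SE 0.17), with folds of 1.78, 1.45 and 1.32. All 4 passed the unadjusted criterion, which 4.77% of probes passed, and none passed after adjustment. For none of the 4 were HK and HC free of overlap, and 0.957% of probes were. Without HK3, NFAT5 (0.40), RCAN1 (-0.24) and ADRB1 (0.31) were no longer past the criterion, and without HK2 NFAT5 was at 1.12. NFAT5 also missed it without HC4, HC5 or HK1, RCAN1 without HC4, and ADRB1 without HC2, HC3 or HK1. SLC4A4 was past it whichever array was left out, which again is no test of a gene chosen on these arrays. With only HK and HC in the fit, NFAT5 and RCAN1 did not pass, and in the deposited log2 table RCAN1 was the 1 gene that did. With normexp on the local background of each spot none of the 4 passed. Leaving out any of the 9 arrays in turn moved SLC4A4 between 0.45 and 0.62, ADRB1 between 0.31 and 0.50 and RCAN1 between -0.47 and -0.24.

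In normoxia, NK against NC gave -0.03 (SE 0.16) for RCAN1, with a 95% interval from -0.37 to 0.30. The other 3 genes had lower means in NK, by -0.43 (SE 0.21) for SLC4A4, -0.40 (SE 0.39) for NFAT5 and -0.28 (SE 0.20) for ADRB1. None of the 4 passed the criterion, which 1.79% of probes passed. NC and NK arrays that share a replicate number lay on the same slide and also shared deviations from their group means. The number entered an alternative fit as a block over all 4 groups, so it also tied normoxic to hypoxic arrays. Those cannot share a ewe, since whole pregnancies were drawn for normoxia or hypoxia. In that fit SLC4A4 differed by -0.36 and did pass the criterion, while NFAT5 differed by -0.28 and ADRB1 by -0.29. These values leaned on single arrays: without NK1, NFAT5 was at -0.23 and ADRB1 at -0.15, without NK3 ADRB1 was at -0.43 and past the criterion, and without NC3 SLC4A4 was at -0.25. SLC4A4 passed the criterion without NC2, NK1 or NK3, at -0.60, -0.54 and -0.52, and with the slide as a block, at -0.45. Without NC2 the RCAN1 difference was 0.05.

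Under ketamine, HK against NK gave 0.47 (SE 0.19) for SLC4A4, the 1 gene of the 4 past the criterion there, beside 5.18% of probes. SLC4A4 was no longer past it without NK2, NK4, HK2 or HK3, with values from 0.35 to 0.44, under either normexp setting or in the deposited log2 table. RCAN1 differed by 0.28 (SE 0.15), with 0.17 without HK1 and 0.39, past the criterion, without HK3. NFAT5 differed by 0.26 (SE 0.36). ADRB1 differed by 0.00 (SE 0.18), with a 95% interval from -0.39 to 0.40. Leaving out 1 array moved NFAT5 from -0.18 (without HK3) and 0.095 (without NK1) to 0.55 (without HK2), and ADRB1 from -0.13 (without NK1) to 0.15 (without NK3).

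The interaction, the effect of ketamine in hypoxia minus its effect in normoxia, was 1.23 (SE 0.52) for NFAT5, 0.96 (SE 0.28) for SLC4A4 and 0.68 (SE 0.26) for ADRB1. For RCAN1 it was -0.32 (SE 0.21), and its 95% interval ran from -0.77 to 0.12. The first 3 were past the criterion, as were 3.40% of probes, and none held after adjustment. With normexp on the local background of each spot these 3 turned to -0.60, -0.58 and -0.61, not past the criterion. In the deposited log2 table NFAT5 (0.11) and SLC4A4 (0.07) were not past the criterion either. With the replicate number as a block the NFAT5 value was 1.05 and not past the criterion, while SLC4A4 (0.97) and ADRB1 (0.71) were. NFAT5 also missed it in 6 of the 16 fits that left out 1 array (NC2, NC3, NK1, NK4, HC5 or HK1), and ADRB1 in 1 (NC3, at 0.59). Without HK3 the interaction was 0.79 for NFAT5 and -0.21 for RCAN1, and without HK1 RCAN1 was at -0.43 and past the criterion.

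**Figure D3:**
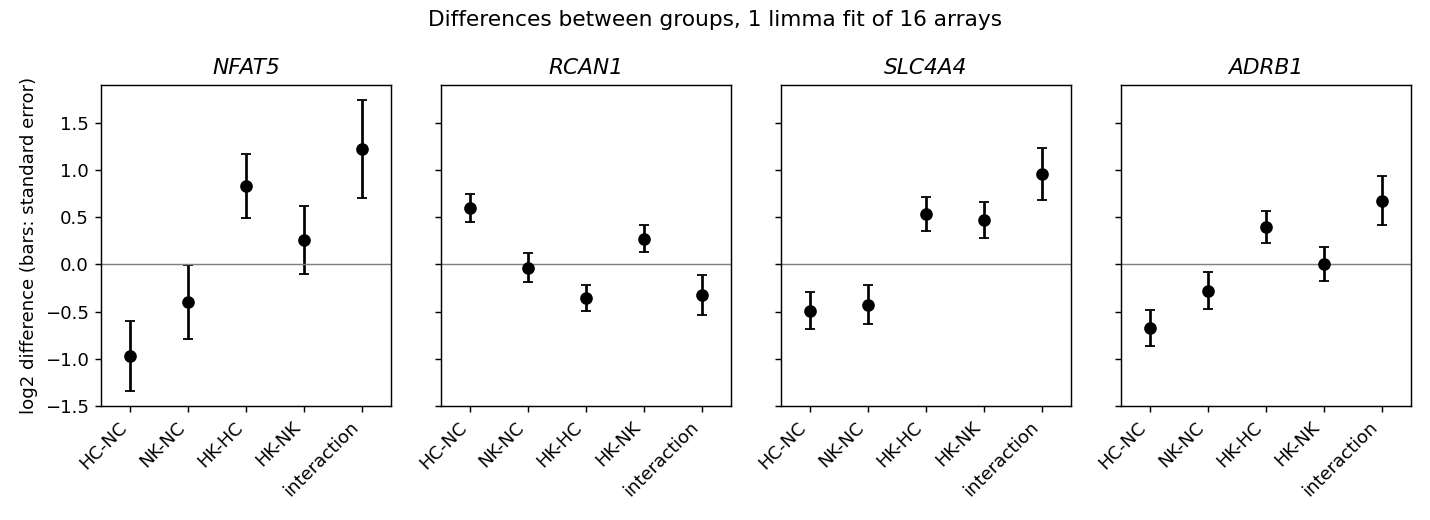
Log2 difference of each gene in the 4 group comparisons and the interaction, with bars for the standard error, from 1 limma fit of the 16 arrays. For RCAN1, HC-NC lies at 0.60 and HK-HC at -0.36, and for NFAT5 they lie at -0.97 and 0.83.

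Each slide held 8 arrays and all 4 groups, so the differences could be read within a slide. HC minus NC was 0.58 on slide 1 and 0.67 on slide 2 for RCAN1, -0.86 and -1.04 for NFAT5, -0.43 and -0.76 for SLC4A4, and -0.66 and -0.80 for ADRB1. Slide 2 held 1 NC array, NC3, and without it the SLC4A4 difference between HC and NC was -0.32. HK minus HC was alike on both slides for ADRB1, at 0.41 on each, and for SLC4A4, at 0.65 and 0.46. For NFAT5 it was 0.31 on slide 1 and 1.31 on slide 2, where HK3 lay, and for RCAN1 -0.17 and -0.56. HK minus NK did not hold its size or sign between slides for 3 genes: it was 0.53 and 0.02 for RCAN1, -0.07 and 0.58 for NFAT5, and 0.23 and -0.22 for ADRB1, against 0.48 and 0.46 for SLC4A4. NK minus NC was -0.12 and 0.09 for RCAN1, -0.48 and -0.31 for NFAT5, -0.26 and -0.77 for SLC4A4, and -0.48 and -0.16 for ADRB1.

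The direction found for the 3 dim genes depended on the background correction. With normexp on the mean spot signal and the local background of each spot, HC minus NC became 0.84 for NFAT5, 0.84 for SLC4A4 and 0.79 for ADRB1, whereas RCAN1 stayed higher at 0.31. Under that correction dim probes as a whole were raised on 6 arrays, 2 each of NK, HC and HK and none of NC, by 1.02 to 3.57 on the log2 scale, against 0.04 to 0.09 on the other 10. The median of the 2647 probes no brighter than ADRB1 shifted to 1.03 for HC minus NC in that setting, so all 3 genes lay below it. When the median local background of the array was used for every spot, the differences were -0.35, -0.27 and -0.32, again below 0. In the log2 table the authors deposited, where low signals are raised by an offset, NFAT5 levels span only 8.09 to 8.30 and the HC minus NC difference is -0.06, with -0.04 for SLC4A4 and -0.07 for ADRB1. The bright RCAN1 differed by 0.53 in that table.

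**Figure D4:**
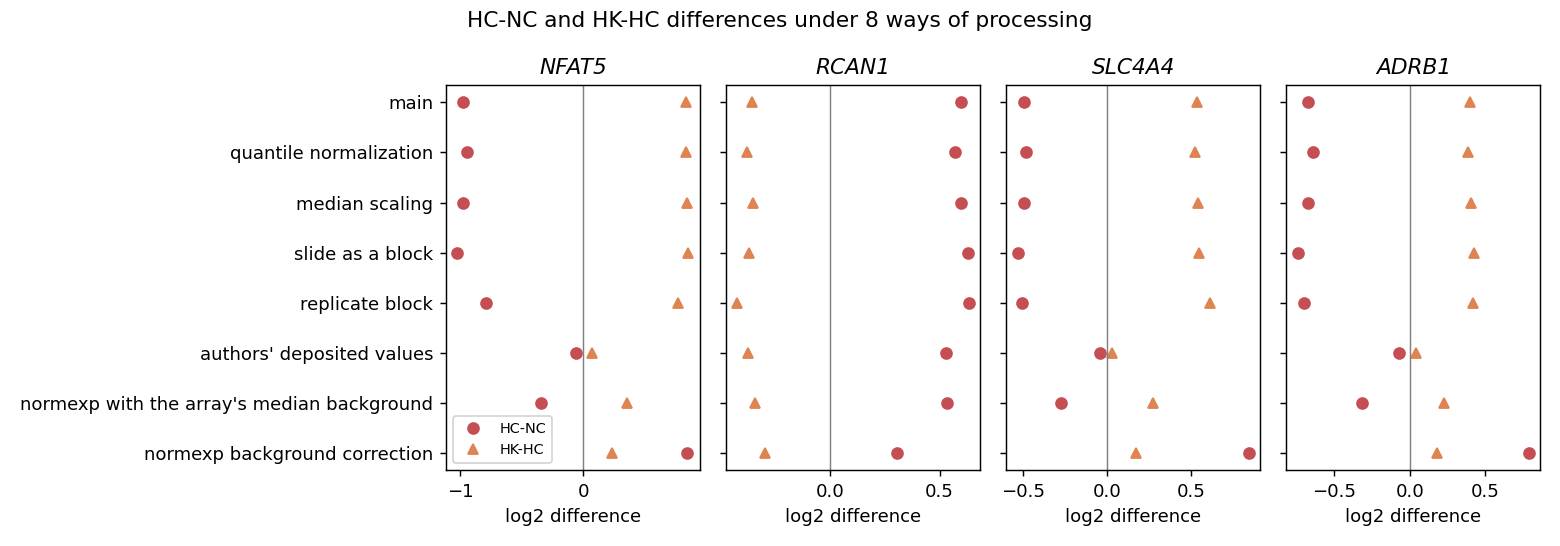
HC-NC (circles) and HK-HC (triangles) log2 differences of the 4 genes under 8 ways of processing, 1 per row, where main stands for the values used in the rest of the text. RCAN1 keeps its side of 0 in each, while HC-NC of NFAT5, SLC4A4 and ADRB1 turns to 0.84, 0.84 and 0.79 with normexp on the local background of each spot.

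Among the 814 other named genes tested, those whose levels followed RCAN1 most closely over the 16 arrays were PDXK, the kinase that makes active vitamin B6 (r = 0.94), MTHFD2, a mitochondrial folate enzyme (r = 0.92), SELP, the endothelial adhesion molecule P-selectin (r = 0.92), CD14, the monocyte coreceptor for lipopolysaccharide (r = 0.90), and NFKBIA, the inhibitor that holds NF-kB in the cytoplasm (r = 0.86). With group means taken out the same 5 gave r from 0.68 to 0.80. These correlations are descriptions over arrays that share groups and slides, and the genes were picked for the highest r.

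The genes nearest to NFAT5 were NUS1 (r = 0.82), UBQLN1 (r = 0.80), THRB, a thyroid hormone receptor (r = 0.80), TRAF3, a signaling adaptor (r = 0.79), and a probe the array names PC1 (r = 0.74). NUS1, TRAF3 and PC1 also stood among the 5 nearest to ADRB1, with r = 0.78, 0.81 and 0.74, after AHR, the aryl hydrocarbon receptor (r = 0.85), and beside JUND (r = 0.78). For SLC4A4 the 5 were ACVR2B (r = 0.77), FTH1, the ferritin heavy chain (r = 0.72), ESR1, the estrogen receptor (r = 0.71), a surfactant protein D probe (r = 0.69) and the glutamate receptor subunit GRIA4 (r = 0.66). The SLC4A4 list shared no gene with the others. With group means taken out, the 5 genes gave r from 0.61 to 0.76 for NFAT5 and from 0.55 to 0.86 for ADRB1. For SLC4A4 they gave r from 0.33 (GRIA4) to 0.74 (ESR1).

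Between the 4 genes themselves, NFAT5 and ADRB1 ran together most closely (r = 0.76, and r = 0.60 with group means taken out). NFAT5 and SLC4A4 gave r = 0.45, of which r = 0.11 was left within groups, SLC4A4 and ADRB1 gave r = 0.51, of which r = 0.27 was left, and RCAN1 ran against the other 3 with r from -0.58 to -0.43. Within groups RCAN1 gave r = -0.48 with SLC4A4, -0.36 with NFAT5 and -0.06 with ADRB1. All 6 are values over the arrays on which the genes were chosen.

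**Figure D5:**
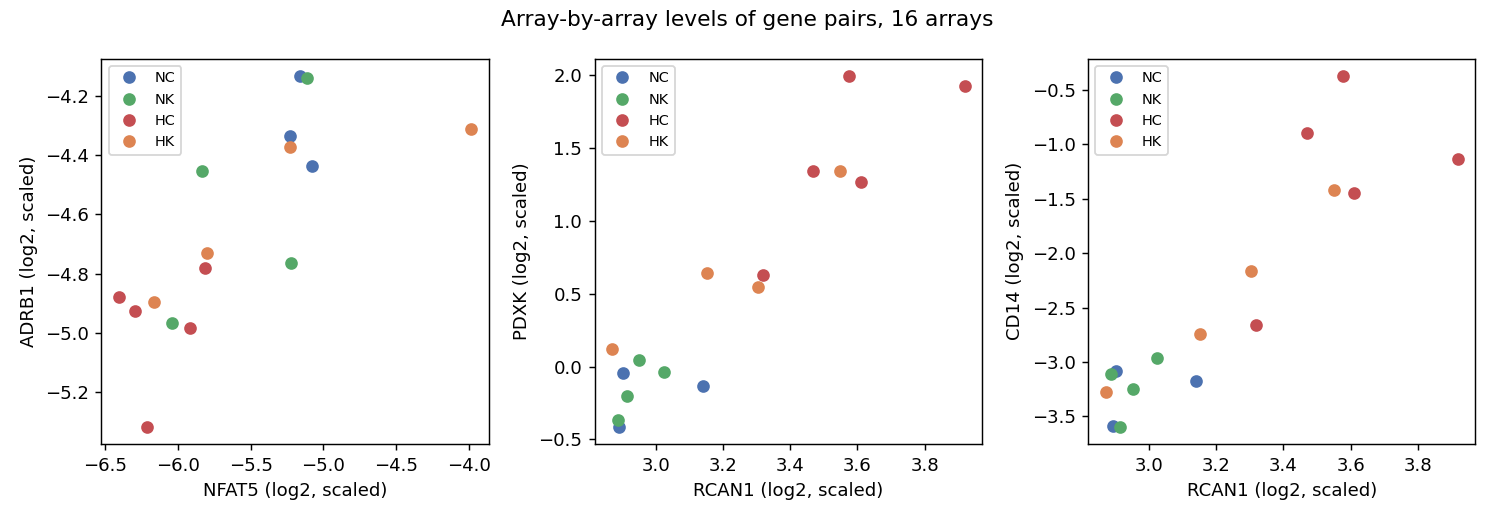
Scaled log2 levels of 3 gene pairs over the 16 arrays, 1 point per array, colored by group. NFAT5 and ADRB1 gave r = 0.76, RCAN1 and PDXK r = 0.94, and RCAN1 and CD14 r = 0.90, with the HC arrays at the high end of RCAN1.

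Of the genes that work with these 4, few were on the array: 22 of 122 listed had a named probe and 18 were tested, with limma over all probes. From the calcineurin-NFAT list, calmodulin gene CALM2 was the 1 of 23 measured, and its HC minus NC difference was -0.18 (SE 0.13), not past the criterion in any comparison. Of 25 osmotic response genes, 6 were tested, and SLC2A1, the glucose transporter GLUT1, rose in HC against NC by 0.51 (SE 0.22, unadjusted p = 0.0365, adjusted p = 0.427 in limma). The water channels AQP1, AQP2, AQP4 and AQP5 and the heat shock gene HSPA1A did not pass the criterion in any comparison. Differences for AQP4, the main water channel of astrocytes, lay between -0.07 and 0.13 in the 4 group comparisons.

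Of 35 bicarbonate and proton transport genes, 5 were tested. SLC16A1, the lactate and proton carrier MCT1, rose in HK against NK by 0.56 (SE 0.19, unadjusted p = 0.0111, adjusted p = 0.907 in limma). The sodium pump subunit ATP1B1 and the chloride channel CFTR passed in no comparison. Of 39 adrenergic and cAMP genes 6 were tested, ADRB3, PRKACA, PRKAR1A, CREB1, CREM and SLC6A2, with none past the criterion. The beta-3 receptor ADRB3 differed by 0.29 (SE 0.28) in HC against NC, where ADRB1 was lower. Median differences in HC against NC were 0.04 for the osmotic list, -0.11 for bicarbonate transport and 0.10 for adrenergic signaling, beside -0.02 over all probes. In HK against HC they were -0.13, 0.13 and 0.03, beside 0.02.

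The tissue carried hippocampal and glial transcripts on all arrays. The neuronal markers GRIN1, GRIA1, SST, NEUROD1 and NPY were well above background on all 16, as were the astrocyte markers GFAP, AQP4, SLC1A2, SLC1A3 and GJA1. Against NC, 1 of 5 neuronal markers passed the criterion in HC: GRIA1 fell by 0.65 (SE 0.26, unadjusted p = 0.0261, adjusted p = 0.383 in limma), while the other 4 ran from -1.63 for NEUROD1 to 0.27 for NPY. Between these lay GRIN1 at -0.96 (SE 0.46, not past the criterion, groups not overlapping) and SST at -0.65. Of 5 astrocyte markers, GJA1, a gap junction protein, rose by 0.75 (SE 0.24, unadjusted p = 0.00698, adjusted p = 0.245 in limma). The other astrocyte markers did not pass, at 0.53 for GFAP, 0.08 for AQP4, -0.36 for SLC1A3 and -0.39 for SLC1A2. Of 5 markers of microglia and macrophages tested, CD14, FCER1G and FCGR1A rose in HC against NC. CD14 and FCGR1A fell in HK against HC, all without passing after adjustment. CYBB (1.17 in HC-NC, -0.19 in HK-HC) and ITGAM (0.52 and -0.13) passed in neither. The summed level below covers all 5 markers. Their summed level, as a multiple of the 75th percentile, was 0.50 to 0.62 in NC, 0.53 to 0.63 in NK, 0.82 to 2.10 in HC and 0.56 to 1.04 in HK, with CYBB well above background on 6 of 16 arrays. Endothelial markers summed to 1.29 to 1.42 in NC, 1.00 to 1.76 in NK, 1.37 to 4.52 in HC and 1.53 to 2.38 in HK. Of 6 tested, SELP and ICAM1 rose in HC against NC without passing after adjustment (adjusted p = 0.168 and 0.181 in limma). PECAM1 (0.09), FLT1 (0.38) and EDN1 (0.73) did not pass the criterion there. KDR, a VEGF receptor of the same list, differed by -0.39 there (SE 0.20, not past the criterion, groups not overlapping). The SELP level ran from -4.05 (HC5) to 1.38 (HC4) within HC, so the HC sums are not a measure of endothelium as a whole. In HK against NK SELP rose by 2.53 (SE 0.95) and KDR fell by 0.51 (SE 0.19). Neither passed after adjustment (adjusted p = 0.907 for each in limma). The part of these cells in the RCAN1 difference was not tested.

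Neuronal markers summed to 32.9 to 39.4 in NC, 31.7 to 44.8 in NK, 7.16 to 45.1 in HC and 41.1 to 45.5 in HK. Markers of astrocytes, the cells in which SLC4A4 is best known, summed to 63.4 to 73.7 in NC, 56.2 to 72.1 in NK, 62.9 to 90.4 in HC and 63.5 to 79.2 in HK. These and the other sums add unlogged levels, so their brightest genes weigh most. In NC those were SST for neurons (mean log2 level 4.76) and AQP4 for astrocytes (5.88). The sums therefore largely follow these genes rather than the cell types. Choroid plexus, meningeal and red blood cell lists, with 5, 3 and 1 genes tested, had no gene past the criterion, although choroid plexus sums ran from 1.23 to 90.1 between single arrays. No oligodendrocyte marker was among the named probes. Over the whole array, the share of spots well above background lay between 76.7% and 82.6%, and the 75th percentile of intensity ran from 880 to 1200.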

How the data were processed

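One-color ovine arrays with Cy3-labeled hippocampal RNA were analysed, 1 for each of 16 fetuses, grouped and numbered by their labels. Each array's scanner output was deposited by the authors. Per the file headers its intensity values had been background-subtracted and detrended by Feature Extraction 10.1.1.1, with nothing done between arrays. A second deposited table holds the authors' log2 values, made with limma per the labels' processing notes. Its columns share their quantiles and its low signals carry an offset, and the background method behind it is not given in the sources used here.

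Here the log2 intensity was scaled by subtracting each array's 75th percentile over probes other than controls. Control and outlier spots were dropped and repeated spots averaged. A probe entered the tests when it was well above background (13 SD of the background) on 3 or more arrays, which left 12543 of 15008. Names from the array annotation and a RefSeq gene table covered 1556 probes. All comparisons came from a single two-sided limma fit (version 3.58.1, R 4.3.3) of the 4 groups with no covariate, and the script was first tested on simulated data. The criterion was an unadjusted p under 0.05, beside Benjamini-Hochberg values over all probes. The study states p under 0.05 and does not say whether it was adjusted. The number of arrays limits the precision.

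Members and gene lists were chosen with earlier results of these data known. Older array names of list genes were matched after the files were read. Named genes were the members, the 5 genes of highest Pearson r with each, up to 3 genes a list and comparison past the criterion, and genes needed to state a small count. A gene stood by its brightest probe. Some list genes are counted but not reported here by name. The lists were calcineurin-NFAT signaling, osmotic response, bicarbonate and proton transport, adrenergic receptors and cAMP signaling, and markers of hippocampal neurons, astrocytes, microglia and macrophages, endothelium, choroid plexus, oligodendrocytes, meninges and mesenchyme, and red blood cells.

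Replicate numbers, given by the labels, were checked for pairing through deviations from the group means. For NC and NK the same-numbered arrays correlated at 0.37, 0.31 and 0.21 (other pairs averaged -0.10), so these groups were taken as possibly paired. Same-numbered arrays also lay on the same slide, and the other pairs mixed arrays of the same and of different slides. This check therefore did not separate pairing from slide. The main fit took no account of pairing, and the replicate block, entered over all 4 groups, was an alternative. Every other pair of groups had at least 1 correlation under 0.1. HC and HK correlated at 0.39, 0.31, 0.07 and 0.12 (other pairs averaged -0.06), so pairing of these groups is unsettled. Alternatives tried were normexp (offset 50), quantile or median scaling, the deposited log2 table, no filter or a filter on all 16 arrays, slide or replicate number as a block, a fit of just the groups compared, the mean over a gene's probes and each array left out. Normexp with the array's median local background was added after seeing the data.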

Additional observations from a re-analysis of the deposited data

How the results depend on the processing

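Of the differences of the 4 genes under alternatives, 352 moved by less than 1 residual SD and 31 by more or against a difference past the criterion. The sign turned in 17, 6 of differences past the criterion (all with normexp) and 11 of differences that were not, 6 of those for ADRB1 in HK-NK, near 0. Quantile normalization, median scaling, the slide block and the replicate block moved none of the differences by that much. The filter settings and the fit of just the groups compared cannot change a difference, nor can either block in HK-NK. Their values are among the 352 and say nothing about stability. With normexp background correction HC-NC turned to 0.84 for NFAT5, 0.84 for SLC4A4 and 0.79 for ADRB1, and the interaction to -0.60, -0.58 and -0.61. RCAN1 moved there to 0.31 in HC-NC and -0.11 in the interaction. NK-NC became 0.84 for NFAT5, 0.76 for SLC4A4 and 0.79 for ADRB1, and HK-HC 0.23 for NFAT5 and 0.17 for SLC4A4. The 6 arrays on which this correction raised dim probes by 1.02 or more include no NC array. With the array's median background, HC-NC was -0.35 for NFAT5 and -0.32 for ADRB1, NK-NC -0.11 and HK-NK 0.11 for SLC4A4, and the interaction 0.45 for NFAT5, 0.39 for SLC4A4 and 0.32 for ADRB1. The authors' deposited values, compressed at low signals, gave for NFAT5 -0.0621 in HC-NC, 0.0711 in HK-HC and 0.106 in the interaction. They gave for SLC4A4 -0.0423 in HC-NC, -0.0398 in NK-NC, 0.0294 in HK-HC, 0.0269 in HK-NK and 0.0692 in the interaction, and for ADRB1 -0.0707 in HC-NC, 0.0439 in HK-HC and 0.0919 in the interaction.

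Whether replicate numbers pair HC with HK could not be settled, and they were taken as pairs for NK and NC only. There the replicate block moved no count by over 1.5 times (314 probes past the criterion against 225). The block tied the same number across all 4 groups. Elsewhere, with this block, 1054 probes passed in HK-HC, 1065 in HK-NK and 663 in the interaction, against 598, 650 and 427 without it. NFAT5 differed by -0.79 in HC-NC and by 1.05 in the interaction, neither past the criterion. With normexp 569 probes passed in HC-NC, 18 in NK-NC, 90 in HK-HC, 73 in HK-NK and 98 in the interaction. In NK-NC 146 passed among probes well above background on all arrays and 104 with normexp on the median background. The cause was not tested for these counts.

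Listed pathway genes past the criterion numbered 1 in HC-NC, 0 in HK-HC, 1 in HK-NK and 0 in the interaction. With the slide as a block they were 2 in HC-NC, 1 in HK-HC and 3 in HK-NK, and with the replicate block 3, 1, 3 and, in the interaction, 1. With only the 2 groups compared they were 0 in HC-NC and 2 in HK-NK, with the mean of a gene's probes 2 in HK-NK, and with normexp on the median background 2 in HK-NK. Leaving out 1 array, they ran from 0 (without NC1, NC2 or HC3) to 2 (without HC5) in HC-NC, from 0 to 1 in HK-HC and in the interaction (1 without HC5), and from 1 to 2 in HK-NK (2 without NK3 or HK3). Probes past the criterion then ran from 947 to 1614 in HC-NC, from 407 to 1079 in HK-HC, where the highest was without HC1, and from 316 to 655 in the interaction, again highest without HC1. NFAT5 is the result most limited by signal over background, being well above it on 13 of 16 arrays.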
